A study of Mus musculus with 4 samples.

Results

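DNA methyltransferase and UHRF genes were examined in RNA-Seq libraries of mouse oocytes. These were the 6 rows of the deposited table, of 25587, whose gene name is Dnmt1, Dnmt3a, Dnmt3b, Dnmt3l, Uhrf1 or Uhrf2. The oocytes came from wild-type C57BL/6Babr mice and were pooled into 1 library per stage: non-growing oocytes (NGOs) at 5 days post-partum (dpp), growing oocytes at 8 to 14 dpp (GO1) and at 15 dpp (GO2), and fully grown oocytes (FGOs) at 20 dpp. All 4 libraries were made from total RNA after removal of ribosomal RNA, with a dUTP second-strand protocol for NGOs and FGOs and a ScriptSeq kit for GO1 and GO2. Stage and protocol therefore cannot be told apart from NGOs to GO1 or from GO2 to FGOs, and changes were taken within a protocol, between NGOs and FGOs and, separately, between GO1 and GO2. With 1 library per stage there was no replicate check of any difference, and no p values were computed.

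DNA methylation of the mouse oocyte is set up during follicular growth, after the germ line has been cleared of most methylation. DNMT3A and DNMT3B place methyl groups on unmethylated CpGs, DNMT3L has no catalytic activity of its own and binds the DNMT3 enzymes as a cofactor, and DNMT1 copies methylation onto the new strand after replication. UHRF1 brings DNMT1 to hemimethylated CpGs, and UHRF2 is its paralog.

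The values are RPKM, in which reads are divided by exon length and by a total for the library, so they give a share of the library and not an amount per oocyte. A lower share of oocyte RNA in a pool and less RNA of a gene per oocyte cannot be told apart. Whole counts were recovered from the RPKM values and came to 61503633 over all genes for the NGO library, 71435364 for GO1, 132237178 for GO2 and 68623225 for FGOs. All 14 oocyte markers examined were detected, with at least 3 counts, in every library. Their summed RPKM was 7518 at the NGO stage, 5609 at GO1, 5413 at GO2 and 5755 at the FGO stage, with the zona pellucida gene Zp2 the most abundant in each. Of the 14, 3 were higher in FGOs than in NGOs and 11 lower. Sums of the other marker lists were far lower and are given after the changes.

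Dnmt1, on chromosome 9 (GRCm38, chr9:20907206-20959888, minus strand), was the most abundant of the 6 genes. Its RPKM was 845 at the NGO stage, 848 at GO1, 824 at GO2 and 559 at the FGO stage. Dnmt1 ranked 14th, 12th, 8th and 24th, respectively, among all listed genes, so it stayed among the most abundant transcripts of each library, with its lowest value in FGOs. It accounted for 76.6 % of the summed RPKM of the 6 genes at the NGO stage, 81.0 % at GO1, 81.8 % at GO2 and 71.5 % at the FGO stage.

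Uhrf1 (chr17:56303321-56323486, plus strand), whose product recruits DNMT1, was second in every library. Its RPKM was 247 at the NGO stage, 179 at GO1, 158 at GO2 and 184 at the FGO stage, with ranks of 66, 95, 94 and 100. The ratio of Uhrf1 to Dnmt1 in RPKM was 0.292 at the NGO stage, 0.212 at GO1, 0.192 at GO2 and 0.329 at the FGO stage. The ratio was thus lower in both ScriptSeq libraries than in both dUTP libraries.

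Uhrf2 (chr19:30030513-30093722, plus strand) was the least abundant of the 6 in every library. Its RPKM was 0.661 at the NGO stage (95 % exact Poisson interval 0.610 to 0.715), 1.03 at GO1, 1.10 at GO2 and 1.04 at the FGO stage, below the median of detected genes in each library, which was 2.08, 1.55, 1.27 and 1.95, respectively. This position depends on gene length, as the values rest on an exon union of 8590 bases against 3536 for the longest protein-coding transcript of Uhrf2. With that transcript length for Uhrf2 alone the levels would be 1.61, 2.49, 2.67 and 2.53, above those medians from GO1 on, and by counts without length its percentile among detected genes was 47.7, 58.2, 61.5 and 55.2. Intervals here and throughout cover counting error only, and reads from PCR-amplified libraries are not independent molecules. The GO1 (0.967 to 1.09), GO2 (1.05 to 1.14) and FGO (0.981 to 1.11) intervals overlapped, and NGOs lay below all of them. With the scaling used for changes, the log2 change of Uhrf2 from GO2 to FGOs was -0.18 (-0.29 to -0.08), an interval that does not reach 0, but with counts divided by 4 it was -0.40 to 0.03. That division was chosen after seeing the data, since the fitted totals exceed the number of mapped fragments. The ratio of Uhrf2 to Uhrf1 in RPKM was 0.00268 in NGOs and at most 0.00694 in the other libraries, and with longest transcript lengths it was 0.00548 and at most 0.0142.

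Dnmt3a (chr12:3806007-3914443, plus strand), the main de novo enzyme of growing oocytes, had an RPKM of 5.22 at the NGO stage (5.12 to 5.33), 6.82 at GO1 (6.71 to 6.94), 6.85 at GO2 (6.77 to 6.93) and 6.00 at the FGO stage (5.89 to 6.11). Its intervals overlapped in GO1 and GO2 and were separate elsewhere. The exon union that the Dnmt3a values rest on, 16642 bases, is longer than its longest protein-coding transcript in GENCODE, 9685 bases, and with that transcript length the levels would be 8.97, 11.7, 11.8 and 10.3.

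Dnmt3b (chr2:153649450-153687730, plus strand), the other catalytic enzyme of this family, had an RPKM of 2.97 at the NGO stage (2.83 to 3.12), 2.54 at GO1 (2.42 to 2.67), 3.41 at GO2 (3.31 to 3.52) and 3.85 at the FGO stage (3.70 to 4.01). These intervals of RPKM did not overlap. With the scaling used for changes, however, the interval of the log2 change of Dnmt3b reached 0 from NGOs to GO1 (-0.20 to 0.00) and from GO2 to FGOs (-0.01 to 0.14). With counts divided by 4 the RPKM interval of NGOs (2.70 to 3.27) overlapped those of GO1 (2.30 to 2.80) and GO2 (3.21 to 3.63), and those of GO2 and FGOs (3.55 to 4.18) overlapped too. The ratio of Dnmt3b to Dnmt3a in RPKM was below 1 in every library, at 0.569 at the NGO stage, 0.372 at GO1, 0.498 at GO2 and 0.643 at the FGO stage. Its size depends on gene length. With longest transcript lengths it was 0.392, 0.256, 0.343 and 0.442, respectively. By counts without length, chosen after seeing the data, it was 0.175, 0.114, 0.153 and 0.197.

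Dnmt3l (chr10:78041947-78063622, plus strand), the cofactor, had an RPKM of 3.25 at the NGO stage (3.06 to 3.45), 8.48 at GO1 (8.19 to 8.77), 14.5 at GO2 (14.2 to 14.7) and 28.3 at the FGO stage (27.8 to 28.9). Each library was higher than the one before it in age, with no overlap of intervals. Its percentile among detected genes was 56.8 at the NGO stage, 77.3 at GO1, 86.4 at GO2 and 92.8 at the FGO stage when ranked by RPKM.

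The order of the 6 genes by RPKM was Dnmt1, Uhrf1, Dnmt3a, Dnmt3l, Dnmt3b and Uhrf2 in NGOs, where the intervals of Dnmt3l and Dnmt3b overlapped. From GO1 on, Dnmt3l stood above Dnmt3a. The ratio of Dnmt3l to Dnmt3a in RPKM was 0.623 at the NGO stage (95 % exact binomial interval 0.585 to 0.664), 1.24 at GO1 (1.20 to 1.29), 2.11 at GO2 (2.06 to 2.16) and 4.72 at the FGO stage (4.60 to 4.85). With longest transcript lengths the ratio was 0.5948, 1.185, 2.014 and 4.504, respectively, with the same direction in each library. The direction depends on dividing by gene length, as recovered counts of Dnmt3l without it were below those of Dnmt3a in every library. The ratios of these counts were 0.112, 0.223, 0.379 and 0.847.

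**Figure D1:**
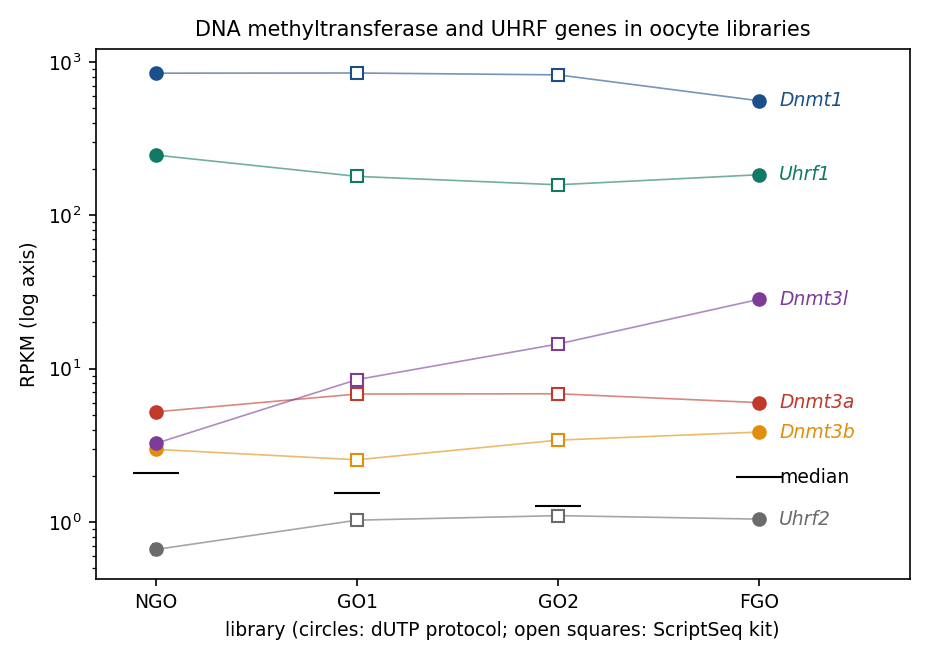
RPKM of the 6 genes (log axis) in the 4 libraries, with filled circles for the dUTP protocol, open squares for the ScriptSeq kit, bars for 95 % intervals of counting error (mostly smaller than the symbols) and black dashes for the median of detected genes. Dnmt3l goes from 3.25 in NGOs to 28.3 in FGOs and crosses Dnmt3a, also with longest transcript lengths but not by counts without gene length. Uhrf2, by the exon length behind the deposited values, lies below the median, a position that turns from GO1 on with its transcript length.

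From NGOs to FGOs, both made with the dUTP protocol, 1 of the 6 genes rose at least 2-fold, against 17.7 % of the 15250 genes that had 20 counts or more over both libraries, and 0 fell 2-fold, against 16.7 % of them. The gene that rose was Dnmt3l, by 3.17 on the log2 scale (95 % exact binomial interval 3.08 to 3.27), which is 9.02-fold, and 595 of the genes compared had a larger change. The log2 changes of the others were 0.25 for Dnmt3a, 0.43 for Dnmt3b, 0.71 for Uhrf2 (0.57 to 0.85, or 0.42 to 1.005 with counts divided by 4), -0.37 for Uhrf1 and -0.54 for Dnmt1. Thus Dnmt3l lay in the upper tail of all genes, and the changes of Dnmt1, Dnmt3a, Dnmt3b and Uhrf1 were within the middle 50 % of genes, which ran from -0.66 to 0.66.

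From GO1 to GO2, both made with the ScriptSeq kit, 0 of the 6 genes rose 2-fold, against 6.86 % of 15730 genes, and 0 fell, against 2.8 %. Dnmt3l had the largest log2 change of the 6, 0.74 (0.68 to 0.80), with 1677 genes above it. The changes were 0.39 for Dnmt3b (0.31 to 0.48), 0.06 for Uhrf2, -0.03 for Dnmt3a, -0.07 for Dnmt1 and -0.22 for Uhrf1. The intervals of Uhrf2 (-0.04 to 0.17) and Dnmt3a (-0.06 to 0.00) reached 0. Changes of this size also depend on the scaling, as with library totals that of Dnmt3a was 0.05, that of Uhrf2 0.14 and that of Dnmt1 0.00, and no direction is read from them.

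**Figure D2:**
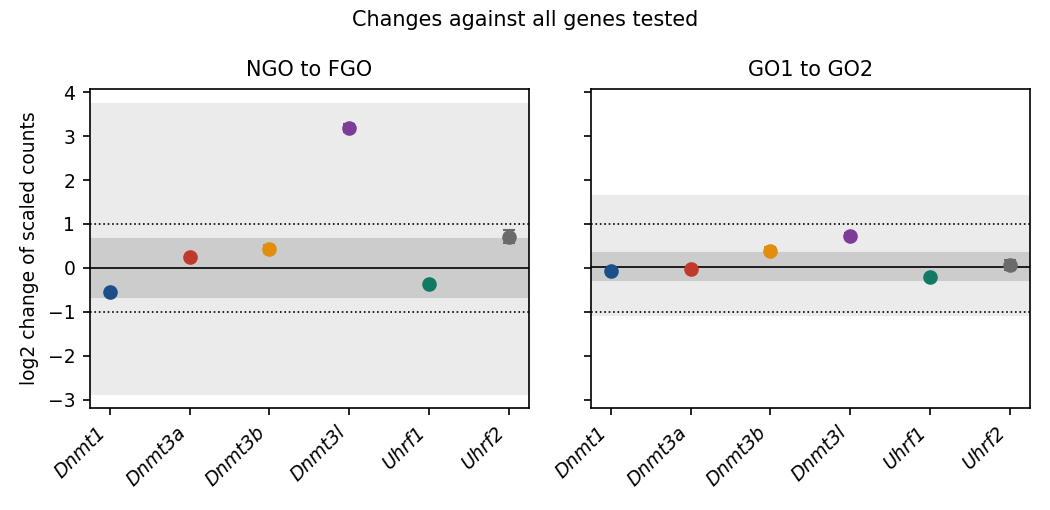
Log2 change of scaled counts for the 6 genes between NGOs and FGOs (left) and between GO1 and GO2 (right), with 95 % intervals of counting error, over the middle 50 % (dark grey) and 95 % (light grey) of all genes compared, and dotted lines at 2-fold. Dnmt3l is past the 2-fold line from NGOs to FGOs, at 3.17, and below it from GO1 to GO2, at 0.74.

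Across the protocols, from NGOs to GO1, 1 of the 6 genes rose 2-fold, against 16.5 % of all genes, and 0 fell, against 21.3 %. That gene was Dnmt3l, with a log2 change of 1.51 (1.41 to 1.61). The change of Uhrf2 was 0.76 (0.62 to 0.91), and with counts divided by 4 its interval, 0.48 to 1.06, reached 2-fold. From GO2 to FGOs 0 rose, against 10.9 % of all genes, and 0 fell, against 9.2 %, and the most negative log2 change was that of Dnmt1, -0.67. In these comparisons a change between stages cannot be told apart from a change between protocols, and each shares its libraries with the comparisons within a protocol.

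Markers of other cells moved between the libraries as well. The 10 granulosa cell genes summed to an RPKM of 6.13 at the NGO stage, 12.1 at GO1, 16.6 at GO2 and 19.4 at the FGO stage, with Nr5a2 the most abundant in each, and none was at 0. The sum was thus higher with age in the same order as Dnmt3l, and its part in the change of Dnmt3l was not tested. Without Nr5a2, left out after seeing the data, the sum was 2.513, 2.495, 5.14 and 10.8, so its first step came from Nr5a2, and 6 of the 10 genes were lower in GO1 than in NGOs. Of the 10, 7 were higher in FGOs than in NGOs and 3 lower. As for Dnmt3l, 3 were higher at every step, Cyp19a1 (0.518, 1.08, 3.13 and 6.08), Kitl (0.514, 0.804, 1.32 and 1.63) and Fshr (0.135, 0.167, 0.171 and 0.302), and 1 was lower at every step, Wt1 (0.161, 0.0433, 0.0328 and 0.0202). Of the 14 oocyte markers, 2 were also higher at every step, Oosp1 (253.6, 409.5, 415.7 and 699.6) and Oog1 (121.1, 505.2, 550 and 706). Among the same 14, 5 were lower at every step. The 4 endothelial genes summed to 3.37, 7.22, 11.2 and 12.4, mostly from Pecam1, with Cdh5 at 0 in GO2 and FGOs. Dnmt3l thus rose along with this sum also, but of the 4 genes only 1, Pecam1, was higher at every step. From NGOs to FGOs 3 were higher and 1 lower. Tek went from 2.79 in GO2 to 2.62 in FGOs, and Kdr had at most 6 counts in any library. The part of endothelial RNA in the change of Dnmt3l was not tested. The 8 theca and stroma genes summed to 5.62 in NGOs, where Col1a1 was the most abundant, and to 0.304, 0.471 and 0.365 in GO1, GO2 and FGOs, where Star (GO1 and GO2) or Pdgfra (FGOs) led, Lum was at 0, and in FGOs Cyp17a1 too. The 5 blood genes summed to 1.81, 0.549, 0.595 and 0.342, led by Hba-a1 in NGOs and Cd68 elsewhere, with Hba-a2 at 0 in every library, Hbb-b1 at 0 outside NGOs and Hba-a1 at 0 in GO1 and FGOs. The 7 genes of dividing cells, all of which were detected in every library, summed to 132, 180, 157 and 135, with Birc5 the most abundant.

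Reads of neighbouring genes could also enter these values, as the strand setting used for counting is not given in the sources used here. Aire, on the opposite strand, shares 1664 bases with the span of Dnmt3l and had an RPKM of 0.731, 0.742, 1.10 and 2.19 from NGOs to FGOs. Gm10485, which lies within Dnmt3a, was at most 0.0483, and 7530422B04Rik, which overlaps the start of Dnmt3b, was at 0.441 in NGOs and 0 in FGOs. Each overlapping gene had a lower RPKM than the member it touches in every library. In recovered counts Aire had 309, 360, 1016 and 1000, against 1075, 3211, 10426 and 10117 for Dnmt3l. Values over whole genes do not show how many reads the shared bases add to a member, and this was not tested. Dnmt3a, Dnmt3b and Dnmt3l belong to 1 gene family, Dnmt3c was not analysed here, and copies elsewhere in the genome were not searched for. Reads were placed at a single position each, so reads shared with related genes or copies remain uncertain.

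Across the lists of genes that work with these proteins, 41 of 42 had enough counts to compare. From NGOs to FGOs 2 rose 2-fold (4.88 %, against 17.7 % of all genes) and 6 fell (14.6 %, against 16.7 %), with a median log2 change of -0.05 against -0.01 for all genes. From GO1 to GO2 0 rose, against 6.86 % of all genes, and 1 fell (2.44 %, against 2.8 %), with a median of -0.04 against 0.02. Zbtb4 had too few counts in all 4 libraries. Within 2-fold were 33 of 41 and 40 of 41, respectively, against 65.6 % and 90.3 % of all genes, most of which thus also stayed within 2-fold. The single lists hold few genes, and nothing particular to a list is read from its counts.

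Among partners of maintenance methylation, Usp7, a deubiquitinase that binds DNMT1 and UHRF1, was the most abundant in GO2, with an RPKM of 81.2. Lig1, the DNA ligase of replication, fell from 8.98 in NGOs to 3.54 in FGOs. It was 1 of 7 in this list (14.3 %) to fall 2-fold, against 16.7 % of all genes. Among partners of de novo methylation and the histone marks that guide it, 2 of 9 fell (22.2 %, against the same 16.7 %). Kdm1b, an H3K4 demethylase needed for methylation of imprinted genes in oocytes, had the highest RPKM in GO2, 156, and fell from 231 in NGOs to 98.96 in FGOs. Ehmt2, an H3K9 methyltransferase, fell from 5.99 to 2.13.

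All 8 genes of methyl group supply were within 2-fold in both comparisons, as were 65.6 % and 90.3 % of all genes, and Mat2b, the regulatory subunit of methionine adenosyltransferase, was the most abundant in GO2, with 93.1. Among methyl-CpG readers, Zbtb33 (Kaiso) was the most abundant in GO2, with 9.76, and rose from 5.45 in NGOs to 11.2 in FGOs, a log2 change of 1.10 that no longer passed 2-fold when scaled by library total. Zbtb38, another zinc finger reader, had an RPKM of 1.63 at the NGO stage, 0.670 at GO1, 0.315 at GO2 and 0.110 at the FGO stage. It was the single gene of all lists past 2-fold from GO1 to GO2, with a log2 change of -1.12, and from NGOs to FGOs its change was -3.84, opposite in sign to that of Dnmt3l.

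Of the genes for oxidation and repair of methylcytosine and protection of methylation, 1 of 9 rose (11.1 %, against 17.7 % of all genes) and 2 fell (22.2 %, against 16.7 %) from NGOs to FGOs. Dppa3 (Stella), which keeps UHRF1 out of the oocyte nucleus, was the most abundant in GO2, with 807, near the level of Dnmt1 in the same library. Tet1 rose from 0.0492 to 0.128, Tet2 fell from 1.90 to 0.583, and Tdg, the glycosylase that removes oxidised methylcytosine, fell from 0.0505 to 0.00778, which is 5 counts. Trdmt1 (Dnmt2), an RNA methyltransferase related to the DNMTs, was at 1.68 in GO2 and within 2-fold in both comparisons.

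Genes with the most similar profile over the 4 libraries were sought among 10717 genes with at least 100 counts in each, by the root mean square difference of centred log2 scaled counts. For Dnmt3l the nearest were Ece1 (0.0502), Ifitm6 (0.0721) and Upp1 (0.0878), against a median distance to all genes of 1.22. For Dnmt3a they were Zfp597 (0.00842), Cpsf2 and Slc7a11, against a median of 0.420. Within a distance of 0.1 lay 5 genes for Dnmt3l and 374 for Dnmt3a, so many genes not named were also close to Dnmt3a. Distances are larger for a gene that changes more, so neither they nor these numbers are compared between the 6 genes.

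Nearest to Dnmt1 were Golga3 (0.0301), Tpm1 and Eif4a1, to Dnmt3b Ccdc155 (0.0145), Mcm3ap and Nde1, to Uhrf1 D0H4S114 (0.0214), Lcmt1 and Mrpl51, and to Uhrf2 Orc5 (0.0178), Itga6 and Ralgapb. The median distance to all genes was 0.457 for Dnmt1, 0.445 for Dnmt3b, 0.419 for Uhrf1 and 0.495 for Uhrf2. Genes within a distance of 0.1 numbered 129, 138, 233 and 219, respectively, so the genes named are a few of many that were close. With 4 libraries these distances describe the profiles only.

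Promoter sequence from RefSeq (GRCm38.p6) was found for all 6 genes. CG, the letters at which these enzymes act, was counted in the 250 bases before each start. Over 32851 windows of this length the median was 6, with quartiles of 2 and 16, and 92.1 % held at least 1. Dnmt3a had 38, 40 and 15 CGs before its 3 starts, Dnmt3b 21, Uhrf1 10 and 30, and Uhrf2 23. The windows of Dnmt3l, the gene that rose, held 5, 4 and 3 CGs, all within the middle 50 % of windows, and Dnmt1, the most abundant gene, had 2, 7 and 26. Dnmt1 is known to use a promoter in oocytes that lies upstream of the somatic one, but gene-level values do not separate the starts. Of the windows of Dnmt3l and Dnmt1 that overlap no annotated exon, 3 are given 5′ to 3′ on the strand of the gene, with CG in capitals, since Dnmt3l is the gene that rose and Dnmt1 the most abundant. Start 1 of Dnmt1 is the farthest upstream of its 3, and all 3 windows of Dnmt3l lie inside the span of the gene. The window of Dnmt3l start 1 (chr10:78042037-78042286), which is not given, also lies inside the span of Aire (chr10:78030022-78043610). Which start of Dnmt3l these oocytes used was not tested, and the windows given are not read as the source of its rise.
Dnmt3l start 2, chr10:78049592-78049841: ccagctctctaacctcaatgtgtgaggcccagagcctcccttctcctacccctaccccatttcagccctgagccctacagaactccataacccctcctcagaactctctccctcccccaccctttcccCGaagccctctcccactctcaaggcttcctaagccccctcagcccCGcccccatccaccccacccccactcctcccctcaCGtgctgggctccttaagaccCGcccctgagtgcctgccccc
Dnmt3l start 3, chr10:78055085-78055334: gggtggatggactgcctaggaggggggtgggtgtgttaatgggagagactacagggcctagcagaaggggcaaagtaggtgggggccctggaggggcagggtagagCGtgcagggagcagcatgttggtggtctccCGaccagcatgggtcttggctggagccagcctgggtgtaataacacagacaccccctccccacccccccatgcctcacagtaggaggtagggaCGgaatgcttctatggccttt
Dnmt1 start 1, chr9:20959889-20960138: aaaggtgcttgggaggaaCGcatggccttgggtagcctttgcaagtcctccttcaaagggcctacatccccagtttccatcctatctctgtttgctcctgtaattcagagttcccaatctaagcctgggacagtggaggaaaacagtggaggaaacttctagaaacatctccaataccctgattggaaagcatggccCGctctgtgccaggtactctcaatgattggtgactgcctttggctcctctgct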

How the data were processed

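Libraries were mapped by the authors to GRCm38 with TopHat2 2.0.9 after trimming with Trim Galore 0.2.8, and the deposited values are RPKM, although the name of the table speaks of counts. The program, annotation and strand setting behind them are not given in the sources used here. A step per library was fitted so that RPKM times length was whole (within 0.03 counts) for genes with 1 exon, which held for at least 99.37 % of values. Counts of other genes were taken from the GENCODE M21 length that made them whole, or, for 7946 genes including Dnmt1, from the smallest length that did. Tested on simulated data, that smallest length was not always the true one, and counts can then be too small by one factor in all libraries. This leaves RPKM as it is and moves log2 changes little. Log2 changes used a trimmed mean of log ratios (30 % and 5 % trimmed), a prior count of 1 and at least 20 counts in a pair. The members and lists were chosen with earlier results of these data known. Named were all 6 members, listed genes past 2-fold and the most abundant of each list in GO2, the 3 nearest profiles, and the most abundant and absent markers. Cyp19a1, Kitl, Fshr, Wt1, Oosp1, Oog1, Tek and Kdr were singled out, and genes that overlap members added, after their values were seen. Alternatives were other scalings, prior counts, lengths, count minimums and thresholds. Python 3.11.15, numpy 2.4.6, pandas 2.3.3, scipy 1.17.1 and matplotlib 3.10.9 were used.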

Additional observations from a re-analysis of the deposited data

How the results depend on the processing

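The 12 log2 changes of the 6 genes, between NGOs and FGOs and between GO1 and GO2, kept their side of the 2-fold threshold under all 60 alternatives (2 other scalings, a prior count of 5, log2(RPKM + 0.1), and, chosen after seeing the data, counts by the fitting length nearest to the annotation). Those counts, by a rule that did worse than the main one on simulated data, gave 2735 rises and 2596 falls over all genes from NGOs to FGOs, against 2695 and 2549. Over genes with an annotated length only, also chosen after seeing the data, 18.8 % rose and 17.4 % fell. At 4-fold, 1309 genes rose and 840 fell from NGOs to FGOs, and 235 rose and 40 fell from GO1 to GO2, against 1079 and 441 at 2-fold. With at least 100 counts, 553 rose and 214 fell from GO1 to GO2, as fewer genes were compared. Of the listed partner genes 0 rose and 2 fell 4-fold from NGOs to FGOs, 0 fell 4-fold from GO1 to GO2, and 1 rose 2-fold from NGOs to FGOs when scaled by library total, where Zbtb33 came out just short of 2-fold. The ratio of Dnmt3l to Dnmt3a with longest transcript lengths was 1.185 in GO1, 2.014 in GO2 and 4.504 in FGOs. Without length, chosen after seeing the data, it was 0.1119 at the NGO stage, 0.223 at GO1, 0.3789 at GO2 and 0.8474 at the FGO stage, below 1 throughout. Of 72 percentiles recomputed, 41 moved by less than 5 points. These include all those of Dnmt1 and Uhrf1, which lie at 99.3 or more and had little room to move. All those of Uhrf2 moved further, and that of Dnmt3a in NGOs went from 65.9 to 91.9 by counts without length. With counts divided by 4, chosen after seeing the data because the fitted totals exceed the number of mapped fragments, the interval of the change of Dnmt3l from NGOs to FGOs was 2.99 to 3.36, and that of Uhrf2 was 0.42 to 1.005, which reaches 2-fold. No paired analysis was possible because each stage had 1 library.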
